A study of Mus musculus with 6 samples.

Results

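The 10 regulators of the integrated stress response, Atf3, Atf4, Atf5, Ddit3, Cebpb, Cebpg, Trib3, Chac1, Ppp1r15a and Nupr1, were followed by RNA sequencing in a mouse thymoma cell line. They were taken by gene symbol and make up 10 of 25001 loci with a deposited expression value. All 10 were found, each in 1 row, and all 10 had a value of 1 or more in each of the 6 libraries. They were chosen by name with the FPKM values of these libraries already known, in particular the log2 ratio between GFP+EICD and GFP cells, so those values are a description and were not tested.

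The integrated stress response begins with kinases that sense amino acid shortage, unfolded protein in the endoplasmic reticulum, double-stranded RNA or haem deficiency and phosphorylate the translation factor eIF2. Phosphorylated eIF2 lowers protein synthesis in general, while the mRNAs of ATF4, ATF5 and CHOP (the product of Ddit3), which carry upstream reading frames, are translated more. ATF4 pairs with C/EBP proteins and activates genes of amino acid uptake and synthesis, together with feedback regulators that bring translation back.

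The cells were the 427 line, which carried the empty pSUPER vector, and its SP2bKD derivative, aimed at the intramembrane protease SPPL2b. The labels give an siRNA for the derivative, whereas the study's methods describe a stable shRNA in pSUPER and a line grown from 1 cell. Each line was kept without serum for 2 h and then received DMSO or 1 µM PMA, a phorbol ester, for 2 h, which gave 4 libraries (427 DMSO, 427 PMA, SP2bKD DMSO, SP2bKD PMA). SP2bKD cells were also transfected with a GFP vector alone, or with a GFP vector and Flag-tagged EICD, the intracellular domain of the membrane protease epithin/PRSS14 encoded by St14, and GFP-positive cells were sorted for the remaining 2 libraries (GFP and GFP+EICD). Each condition had 1 library, so no difference below has a replicate check and no p-value was computed.

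Levels are FPKM, fragments scaled by transcript length and by library size. Comparison between genes and between libraries is approximate, since this scaling does not correct for a differing make-up of the libraries. The 10 loci with the highest values held 85.6% (SP2bKD GFP) to 94.2% (427 PMA) of the summed FPKM of a library. Other scalings are given at the end. By an estimate from the lowest values, the libraries held 25500000 to 28700000 fragments. Between 10555 and 10873 loci reached 1 FPKM. St14 had 69.6 FPKM with GFP and 614.5 with GFP+EICD, a value that does not separate the transfected sequence from the endogenous gene. Sppl2b was not lower in SP2bKD than in 427 cells, with 13.4 against 9.90 FPKM with DMSO and 9.37 against 6.86 with PMA. The line is labelled thymoma, a tumour of thymic epithelium, and 8 epithelial markers summed to 6328 to 15032 FPKM, mostly Krt5 and Krt14, with Krt19 under 1 in every library. Of 8 T cell markers, 7 were under 1 FPKM in every library, and Cd3d, Cd3e and Cd4 were listed at 0. Fibroblast markers summed to at most 0.594 FPKM and those of macrophages and dendritic cells to at most 8.70, where 4 of 6 were under 1 in every library and Adgre1 was listed at 0.

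Because ATF4 and its partners bind a composite C/EBP-ATF response element, the promoters of the 10 genes were searched for it, with their levels known. Promoters were the RefSeq windows on GRCm38.p6 from 250 bases before to 50 bases after the start, and all 10 genes had at least 1. The letters TGATGNAA, on either strand, occurred in 3.97% of 32851 promoters. Counted by gene, 4.51% of 27025 genes held them in at least 1 promoter, as did 4 of the 10, namely Atf3, Chac1, Nupr1 and Trib3. In Atf3 and Nupr1 the match began 110 bases upstream of the start, and in Chac1 193 bases upstream, each time on the opposite strand. In the lines below, which show 250 bases before the start, 5′ to 3′ in the direction of the gene, the capitals mark this match. Chac1 lies at chr2:119350992-119351241 on the plus strand, Nupr1 at chr7:126625471-126625720 and Atf3 at chr1:191183334-191183583, both on the minus strand.
Chac1: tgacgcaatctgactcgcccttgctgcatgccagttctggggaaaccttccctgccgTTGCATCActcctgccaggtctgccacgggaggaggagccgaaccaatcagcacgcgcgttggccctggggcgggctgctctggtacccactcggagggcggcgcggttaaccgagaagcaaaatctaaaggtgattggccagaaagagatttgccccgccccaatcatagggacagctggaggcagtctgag
Nupr1: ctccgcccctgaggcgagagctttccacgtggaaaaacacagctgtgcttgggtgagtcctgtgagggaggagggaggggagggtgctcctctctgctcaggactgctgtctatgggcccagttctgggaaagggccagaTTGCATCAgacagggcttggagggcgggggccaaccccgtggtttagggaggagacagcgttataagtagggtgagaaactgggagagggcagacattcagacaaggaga
Atf3: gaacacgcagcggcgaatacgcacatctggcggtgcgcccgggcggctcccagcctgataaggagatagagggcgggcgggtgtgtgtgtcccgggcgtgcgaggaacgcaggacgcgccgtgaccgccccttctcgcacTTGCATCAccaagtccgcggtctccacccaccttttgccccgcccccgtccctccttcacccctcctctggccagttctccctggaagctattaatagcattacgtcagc

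Trib3 held its match 14 bases past the RefSeq start, where the element read TGATGTAA on the opposite strand. The 5′ end of the Trib3 locus in the expression data, 152344032, lies downstream of the match. Whether the match falls before or after the start therefore depends on the start used. The 30 bases around it (chr2:152344028-152344057, minus strand) are given with the match in capitals, to set it beside the 3 upstream matches.
Trib3: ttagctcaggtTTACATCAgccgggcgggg

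The 6 other genes held no such match in this window. Ppp1r15a held TGACGTCA, the cAMP response element, 12 bases upstream of its start, a sequence found in 1.79% of all promoters. Its promoter is printed to show this match. It lies at chr7:45526269-45526518 on the minus strand, with the element in capitals.
Ppp1r15a: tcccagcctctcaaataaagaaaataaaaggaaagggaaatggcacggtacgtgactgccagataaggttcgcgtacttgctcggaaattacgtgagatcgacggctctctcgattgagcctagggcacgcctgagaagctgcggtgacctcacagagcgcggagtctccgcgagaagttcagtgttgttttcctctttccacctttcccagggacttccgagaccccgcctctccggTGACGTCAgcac

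Ddit3 held an AP-1 match (TGANTCA) 242 bases upstream, as did 7.81% of promoters. None of the 10 held the ER stress response element (ERSE, searched on both strands), which occurred in 0.119% of promoters. In the IRE1 and ATF6 list described below, 5 of 14 genes with a promoter held it (Calr, Creld2, Dnajc3, Hsp90b1 and Hspa5). In the list of ATF4 and CHOP targets described below, 12 of 35 genes with a promoter (34.3%) held TGATGNAA. These matches describe the sequence and say nothing of binding.

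In cells treated with DMSO the regulators stood at moderate levels, and Atf4 led in every library. Atf4 (chromosome 15, 80255184 to 80257540, plus strand, GRCm38) encodes the central activator of the response. It took 52.5% of the summed FPKM of the 10 genes in 427 DMSO cells and 66.8% in SP2bKD PMA cells, the highest of the 6 libraries. Cebpg, whose small bZIP protein pairs with ATF4, came next in all 4 libraries of untransfected cells, at 26.4 to 33.0 FPKM. Atf3 was last of the 10 in both DMSO libraries. In 427 DMSO cells Ppp1r15a at 12.8, Ddit3 at 12.1 and Chac1 at 12.01 FPKM were near neighbours, and with 1 library their order has no measured spread.

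**Figure D1:**
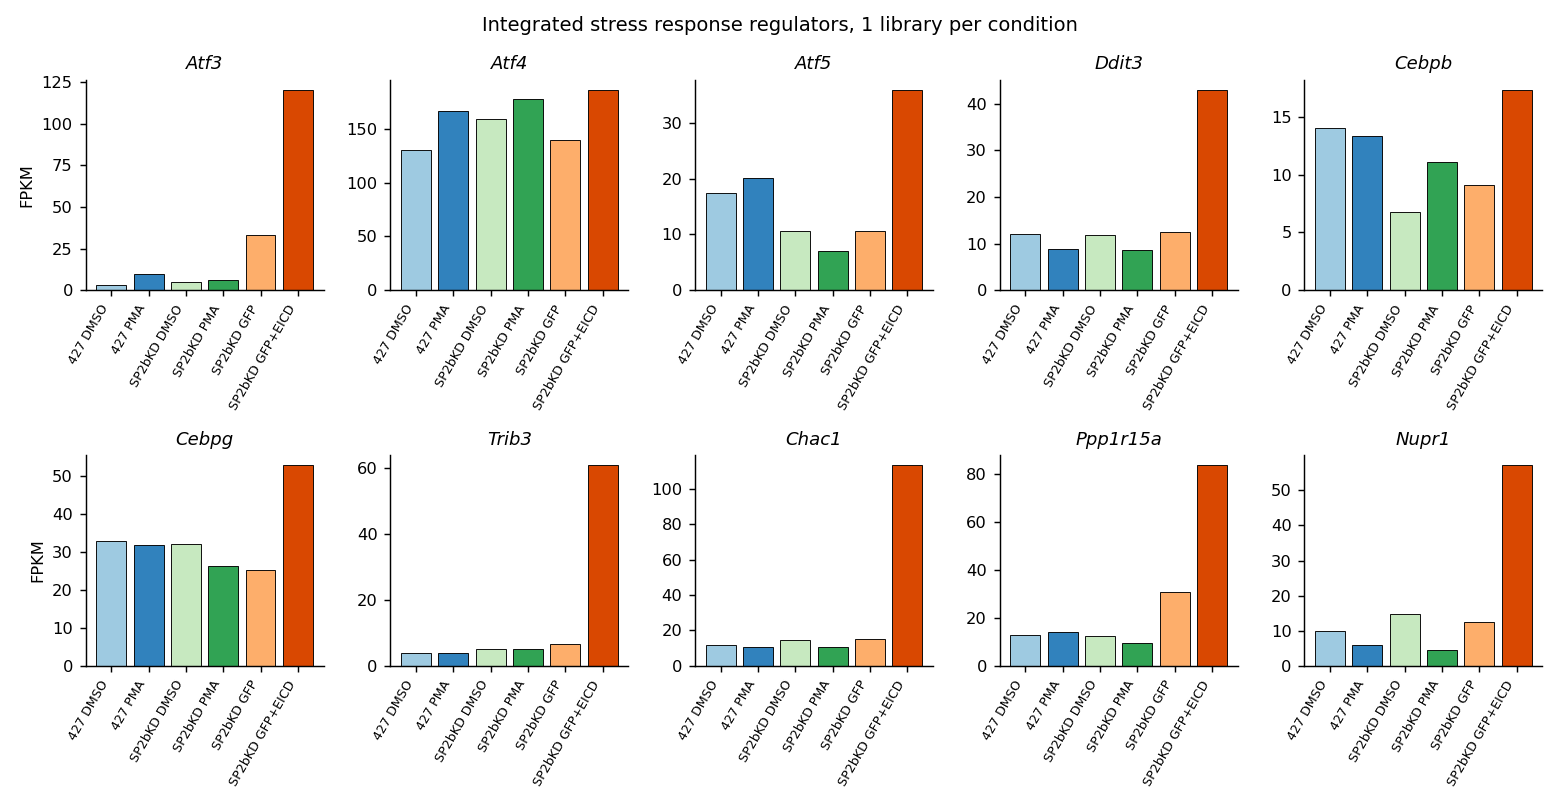
FPKM (vertical axis, starting at 0, with its own scale in each panel) of the 10 regulators in the 6 libraries, 1 bar per library. The GFP+EICD bar is the tallest in all 10 panels, by 1.05-fold over the next library for Atf4 and by 9.27-fold for Trib3. The GFP bar is above all 4 libraries of untransfected cells for Atf3, Ppp1r15a, Trib3, Chac1 and Ddit3, by more than 2-fold over SP2bKD DMSO for Atf3 and Ppp1r15a.

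With EICD all 10 regulators had their highest level of the series, and 8 of them were more than 2-fold above the GFP library. Among all 10991 loci compared, 3.93% passed 2-fold upwards and 0.81% downwards. The median log2 ratio of the 10 was 1.77, against 0.07 over all loci. Trib3, Chac1 and Nupr1 had the largest ratios, Atf3, Ddit3, Atf5 and Ppp1r15a came next, and Cebpg, Cebpb and Atf4 had the smallest. Ranked by increase among all loci, they stood at 11, 22, 44, 80, 91, 99, 168, 379, 503 and 1955 in this order. In bulk RNA, a change in the share of responding cells and a change of RNA per cell cannot be told apart. Since the choice of genes used this contrast, nothing is read from these counts and ranks.

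Trib3 (chromosome 2, 152337422 to 152344032, minus strand), a pseudokinase that binds ATF4 and AKT and restrains the response, had 3.74 FPKM in 427 DMSO, 3.75 in 427 PMA, 4.94 in SP2bKD DMSO, 5.003 in SP2bKD PMA, 6.57 in GFP and 60.9 in GFP+EICD cells. The first 5 libraries ran from 3.74 to 6.57 FPKM and the GFP+EICD library stood alone. The log2 ratio of GFP+EICD to GFP was 3.21, with a 95% counting interval of 3.05 to 3.38, and ranked 11 of 10991 loci. This interval, an exact Clopper-Pearson interval from estimated fragments, covers counting error only, here and below. The intervals of the differences of PMA ratios are also of counting error only, but rest on a normal approximation.

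Chac1 (chromosome 2, 119351229 to 119354381, plus strand), which encodes an enzyme that degrades glutathione, had 12.01, 10.6, 14.4, 10.4 and 15.2 FPKM in the first 5 libraries in the same order and 113.3 in GFP+EICD cells. As with Trib3, a single library was high. The log2 ratio was 2.90 (2.78 to 3.02), rank 22.

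Nupr1 (chromosome 7, 126623249 to 126630861, minus strand), a small stress-induced nuclear protein, had 9.98, 5.83, 14.8, 4.50 and 12.5 FPKM and then 57.1 with EICD. Both PMA libraries were the low ones, which sets it apart from Trib3. The log2 ratio with EICD was 2.19 (2.00 to 2.39), rank 44. Against its next highest library, SP2bKD DMSO, it was 3.86-fold higher.

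Ppp1r15a (chromosome 7, 45522922 to 45526268, minus strand), known as GADD34, brings protein phosphatase 1 to eIF2 and closes the feedback loop. It had 12.8, 14.1, 12.5 and 9.63 FPKM in the untransfected libraries, 30.8 with GFP and 83.8 with EICD. The levels formed 3 steps, with the GFP library between the others. The log2 ratio of GFP+EICD to GFP was 1.45 (1.37 to 1.52).

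Atf3 (chromosome 1, 191170296 to 191218039, minus strand) encodes a bZIP factor induced by stress and by growth factors. It had 2.74 FPKM in 427 DMSO, 9.91 in 427 PMA, 4.63 in SP2bKD DMSO, 6.196 in SP2bKD PMA, 33.0 in GFP and 120.6 in GFP+EICD cells, a span of 44.0-fold, the widest of the 10. Both transfected and sorted libraries were above all 4 others. The log2 ratio with EICD was 1.87 (1.79 to 1.95), rank 80.

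Ddit3 (chromosome 10, 127290774 to 127296288, plus strand), the CHOP gene, had 12.1, 8.84, 11.8, 8.60 and 12.5 FPKM and then 43.1 with EICD, a log2 ratio of 1.79 (1.60 to 1.98). Its 5 other levels stayed within a narrow band. Its exons share 105 bases (6.13%) with a second annotated gene of the same name on the same strand. They also share 68 bases (3.97%) with Mars on the opposite strand, a tRNA synthetase gene that went from 77.6 to 108.3 FPKM between the GFP and GFP+EICD libraries.

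Atf5 (chromosome 7, 44812256 to 44816658, minus strand), a further bZIP factor under translational control, differed by line. It had 17.4 and 20.2 FPKM in 427 DMSO and PMA cells, 10.6, 7.001 and 10.7 in SP2bKD DMSO, PMA and GFP cells, and 36.0 with EICD. The log2 ratio of GFP+EICD to GFP was 1.75 (1.60 to 1.90), whereas the level with EICD was 1.78-fold that of 427 PMA cells. Its exons share 82 bases (4.11%) with Nup62 and Il4i1 on the opposite strand.

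The C/EBP genes showed smaller ratios. Cebpg (chromosome 7, 35046422 to 35056573, minus strand) had 33.0, 31.8, 32.1, 26.4 and 25.3 FPKM and then 52.9, a log2 ratio of 1.06 (0.92 to 1.21) that straddles the 2-fold mark by its interval. Cebpb (chromosome 2, 167688915 to 167690418, plus strand), which encodes an activator of inflammatory and metabolic genes, had 14.0, 13.4, 6.75, 11.1 and 9.13 FPKM and then 17.4, a log2 ratio of 0.93 (0.74 to 1.12). The Cebpb level with EICD was 1.24-fold that of 427 DMSO cells, and its exons share 312 bases (20.7%) with Tmem189 on the opposite strand. The library kit did not keep strand, so reads of such overlaps cannot be assigned.

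Atf4 itself had 130.2 FPKM in 427 DMSO, 167.0 in 427 PMA, 159.5 in SP2bKD DMSO, 178.7 in SP2bKD PMA, 139.6 in GFP and 186.9 in GFP+EICD cells. The log2 ratio with EICD was 0.42 (0.37 to 0.47), and the level was 1.05-fold that of SP2bKD PMA cells. ATF4 protein was not measured here, and its amount depends on translation as well as on mRNA.

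The proportions among the regulators therefore differed between the transfected libraries. Atf4 made up 47.3% of their summed FPKM with GFP and 24.2% with EICD, while the sum went from 295.1 to 771.8 FPKM. Trib3 FPKM was 0.0471 of Atf4 FPKM with GFP and 0.326 with EICD, and Chac1 was 0.109 and then 0.606. Without Atf4, the other 9 genes summed to 88.9 to 155.6 FPKM in the first 5 libraries and to 585.0 with EICD.

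Measured against every other library and not only the GFP library, 6 of the 10 were more than 2-fold higher with EICD (Trib3, Chac1, Nupr1, Atf3, Ddit3 and Ppp1r15a). Among 11580 loci that reached 1 FPKM in some library, 1.27% met this mark, and 26.3% had their highest level in the GFP+EICD library. Atf5, Cebpg, Cebpb and Atf4 did not reach it. This count was added after the values were seen.

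**Figure D2:**
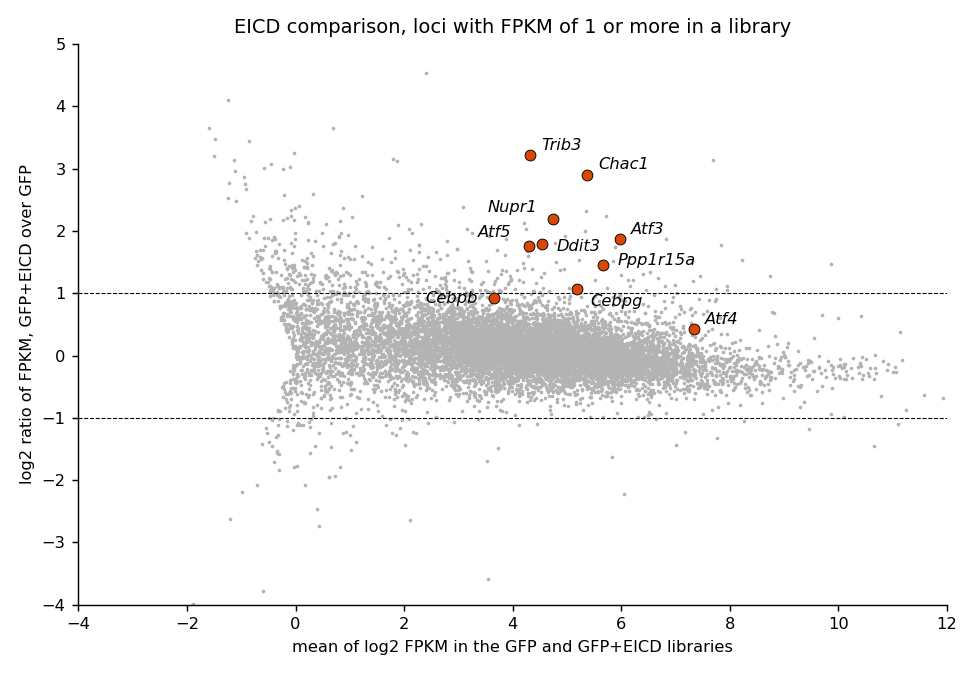
Log2 ratio of FPKM, GFP+EICD over GFP (vertical axis), against the mean log2 FPKM of both libraries (horizontal axis) for loci that reached 1 FPKM in either, with the 10 regulators in orange and dashed lines at 2-fold. Most loci lie between the lines, 8 regulators lie above the upper line from Cebpg at 1.06 to Trib3 at 3.21, and Cebpb and Atf4 lie below it. The axes leave out 33 loci.

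Known targets of ATF4 and CHOP outside the 10 were followed in the same contrast. This list too was chosen with earlier results of these data known, so its counts are a description and were not tested. Of 46 listed genes, 43 could be compared, 21 were more than 2-fold higher and none was lower by that much, and 41 had a ratio above 0. The median log2 ratio was 0.93. Over all loci 3.93% were higher and 0.81% lower by that much, with a median of 0.07. Fgf21, a stress hormone, went from 1.16 to 10.3 FPKM, and Slc7a11, the cystine transporter, from 3.69 to 19.3. Asns, the asparagine synthetase, went from 85.8 to 189.0 FPKM, a log2 ratio of 1.14. Phgdh, the first enzyme of serine synthesis, and Atf6b lay slightly below 0, at -0.07 and -0.11.

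Genes that act upstream of ATF4 or on eIF2 were listed as well, leaving out the 10. Among 20 genes for eIF2 kinases, eIF2 and eIF2B subunits and phosphatase regulators, 0 passed 2-fold in either direction, with a median of -0.01. Over all loci 3.93% were higher and 0.81% lower by that much, so 0 of 20 is near what the other loci show. Ppp1r15a, itself a phosphatase regulator, is counted among the 10 and not here. The kinase genes Eif2ak1 (haem), Eif2ak2 (double-stranded RNA), Eif2ak3 (PERK) and Eif2ak4 (amino acids) had log2 ratios of -0.13, 0.06, 0.36 and 0.07. Ppp1r15b, the constitutive counterpart of Ppp1r15a, had the highest ratio of this list at 0.55. Kinase activity and eIF2 phosphorylation were not measured here.

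The other arms of the unfolded protein response had a median log2 ratio of -0.29 over 16 genes, and 11 of the 16 were below 0. Calr, Hsp90b1 and Sec61b had the lowest ratios, at -0.59, -0.56 and -0.48, and the chaperone gene Hspa5 had -0.35. Herpud1, which serves degradation from the endoplasmic reticulum and is also on the ATF4 target list, was the 1 gene past 2-fold, at 1.52. In all, 5 genes were above 0. Next after Herpud1 came Atf6 at 0.84, from 14.4 FPKM with GFP to 25.8 with GFP+EICD, and Ern1 at 0.23. Among 16 other bZIP factors of the C/EBP, ATF and CREB families, Jdp2 alone passed 2-fold, at 1.96, and the median was 0.08. Over all loci 3.93% were more than 2-fold higher and 0.81% lower, with a median of 0.07. For both lists, 1 of 16 is near what the other loci show. The lists share genes (Jdp2, Nfil3, Atf6, Atf6b, Herpud1 and Dnajc3), so their counts are not separate observations.

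**Figure D3:**
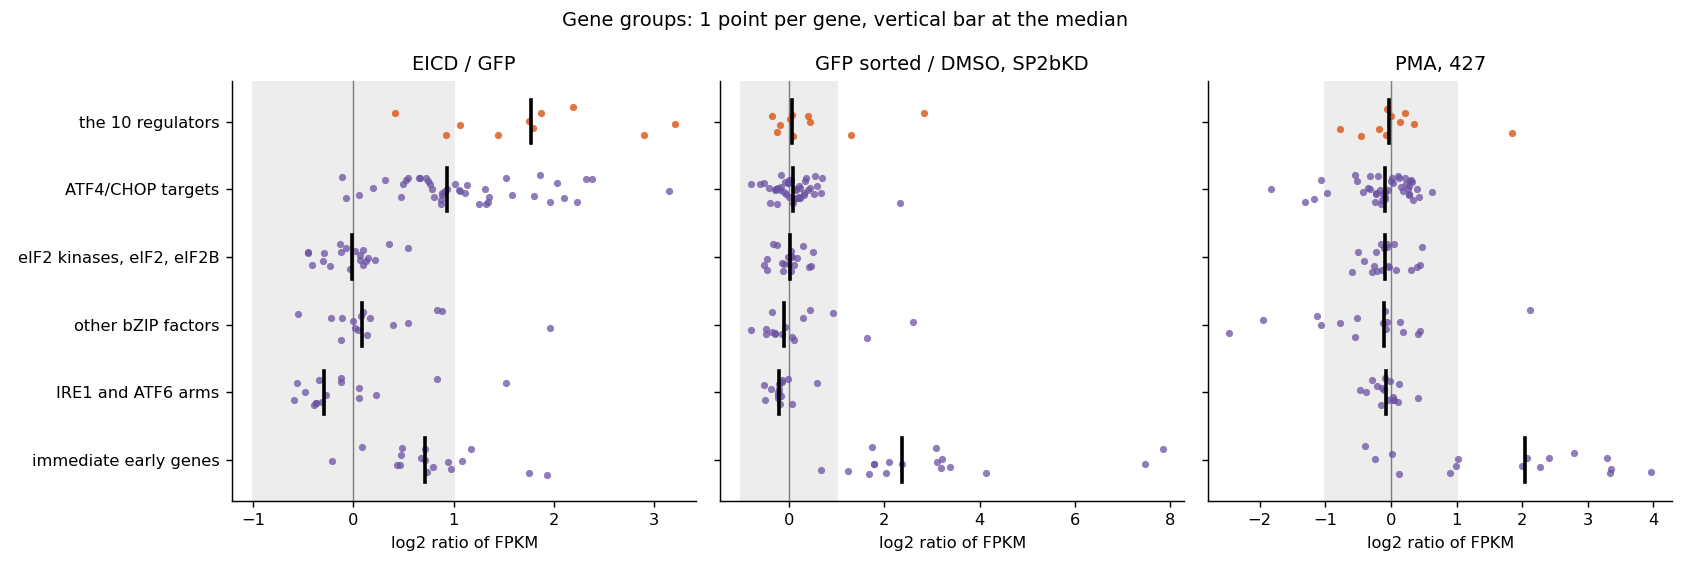
Log2 ratio of FPKM (horizontal axis) of the 10 regulators (orange) and 5 gene lists (purple), 1 point per gene with a black bar at the median, for EICD against GFP, for GFP-transfected and sorted against DMSO-treated SP2bKD cells and for PMA in 427 cells. The regulators (median 1.77) and the ATF4 and CHOP targets (0.93) lie mostly right of 0 with EICD, and the immediate early genes lie mostly right of 0 in all 3 panels (medians 0.72, 2.37 and 2.04). Vertical positions within a row are random and the grey band spans 2-fold.

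The GFP library allows a view of transfection and sorting without EICD. Against DMSO-treated SP2bKD cells, Atf3 and Ppp1r15a were more than 2-fold higher, 2 of the 10, where 4.01% of 11066 loci were higher and 5.14% lower by that much. Atf3 had a log2 ratio of 2.83 (2.63 to 3.04), larger than its ratio with EICD, and Ppp1r15a one of 1.30 (1.18 to 1.43). The 8 others lay between -0.34 and 0.43, and for Atf5, Ddit3 and Chac1 the counting interval included 0. Transfection, sorting and the treatment with DMSO after serum withdrawal differ together between these libraries and cannot be told apart. The GFP library is also the reference for EICD, so both sets of ratios share it.

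Immediate early genes of the phorbol ester response moved with Atf3 and Ppp1r15a in this contrast. Of 17 compared, 16 were more than 2-fold higher in the GFP library than in SP2bKD DMSO cells, with a median of 2.37, led by Fosb at 7.85 and Fos at 7.48. ATF4 and CHOP targets did not show this, with 1 of 43 past 2-fold (Gdf15 at 2.34) and a median of 0.08. With EICD over GFP, 4 of 17 immediate early genes were more than 2-fold higher and their median was 0.72. Their part in the Atf3 and Ppp1r15a ratios was not tested. In a list of heat shock and interferon genes, 1 of 8 was higher by more than 2-fold with GFP and 2 of 10 with EICD over GFP (Cxcl10 at 1.53 and Oasl2 at 1.42, both at 1.81 FPKM or less). With EICD 7 of these 10 were above 0 and 3 below, namely Hsp90aa1 at -0.79, Hspa1a at -0.61 and Hsph1 at -0.57. For all counts of this paragraph, the share of all loci more than 2-fold higher was 4.01% with GFP and 3.93% with EICD over GFP.

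**Figure D4:**
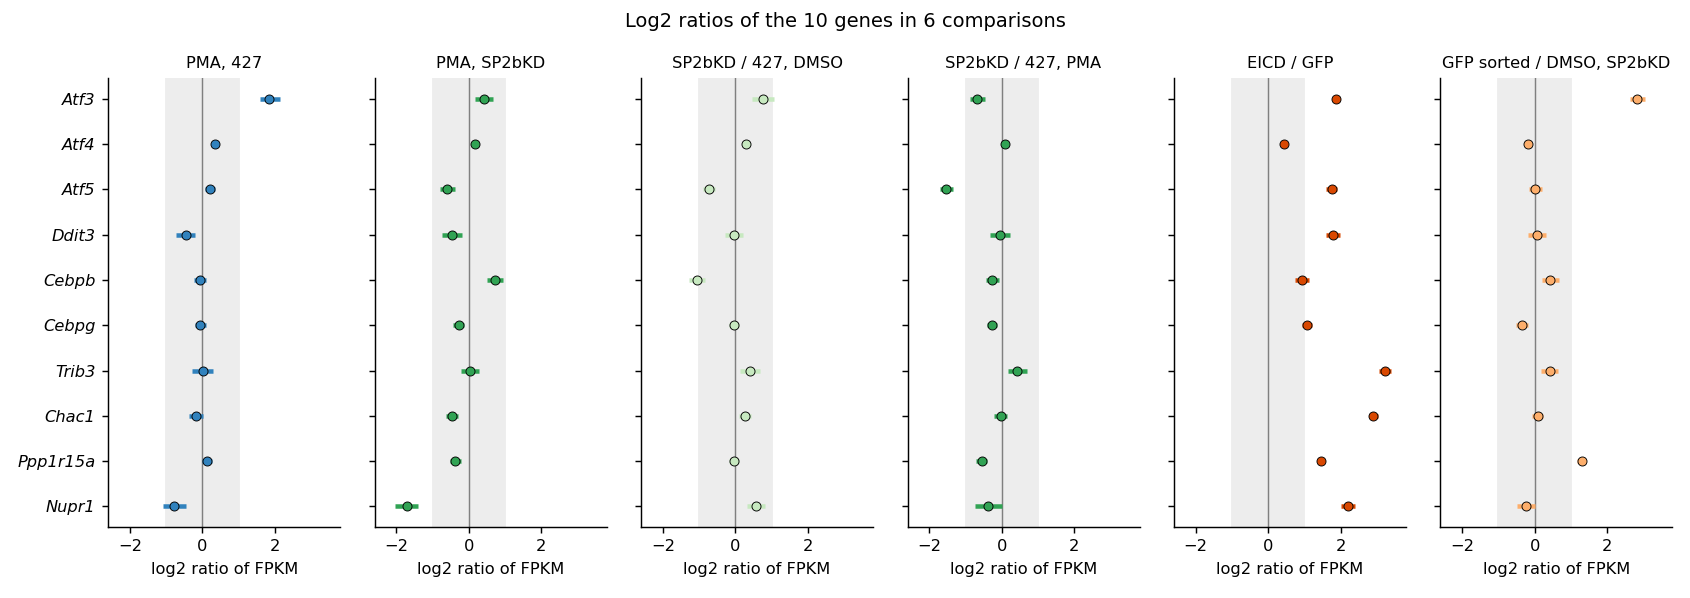
Log2 ratio of FPKM (horizontal axis) of the 10 regulators in 6 comparisons, 1 panel each, with lines for the 95% counting interval and a grey band spanning 2-fold. In the EICD panel 8 points lie right of the band, in the GFP panel Atf3 and Ppp1r15a do, and in each of the other 4 panels 1 point lies outside it.

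PMA raises shedding of epithin/PRSS14, and SP2bKD cells served to separate effects of its intracellular domain from others. In 427 cells 1 of the 10 was more than 2-fold higher with PMA, Atf3, with a log2 ratio of 1.85 (1.58 to 2.13). Over all 10981 loci 4.44% were higher and 5.0% lower by that much, so that 1 in 10 is near what the other loci show. The median of the 10 was -0.03 and that of all loci -0.12. Atf4 had 0.36 (0.31 to 0.41) and Atf5 0.21 (0.08 to 0.35), whereas Ddit3 had -0.46 (-0.72 to -0.20) and Nupr1 -0.78 (-1.10 to -0.47). For Trib3, Cebpg, Cebpb, Chac1 and Ppp1r15a the interval included 0.

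Of 43 ATF4 and CHOP targets, 0 were more than 2-fold higher with PMA in 427 cells and 4 were more than 2-fold lower (Vldlr, Ddit4, Slc7a3 and Fgf21). By comparison, 4.44% of all loci were higher and 5.0% lower by that much, and nothing is read from these 2 counts. In the immediate early list 10 of 16 were more than 2-fold higher, with a median of 2.04, among them Fosl1 at 3.97, Dusp6 at 3.34 and Ier3 at 3.35.

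In SP2bKD cells none of the 10 was more than 2-fold higher with PMA, where 3.83% of 10987 loci were, and Nupr1 was more than 2-fold lower, as were 6.4% of loci (4.78% higher and 4.58% lower with libraries scaled by their median ratio). Nupr1 had a log2 ratio of -1.71 (-2.05 to -1.39), on an estimated 107 fragments in the PMA library, the fewest of any value of the 10. Cebpb had 0.72 (0.50 to 0.94), Atf3 0.42 (0.17 to 0.67) and Atf4 0.16 (0.12 to 0.21). Trib3 had 0.02, with an interval that included 0, and Cebpg, Ppp1r15a, Chac1, Ddit3 and Atf5 lay between -0.28 and -0.59. In the immediate early list 12 of 16 were more than 2-fold higher and 1 lower, with a median of 1.44, among them Fosl1 at 4.68, Dusp6 at 3.78 and Ier3 at 3.01. The ATF4 and CHOP targets had 0 of 42 more than 2-fold higher and 2 lower.

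Set against each other, the lines differed most for Atf3. The PMA ratio of 427 cells minus that of SP2bKD cells was 1.43 (1.07 to 1.79) for Atf3, 0.94 (0.50 to 1.38) for Nupr1 and 0.81 (0.57 to 1.05) for Atf5. Cebpb had the opposite sign, -0.79 (-1.07 to -0.52). Ddit3 at 0.01 and Trib3 at -0.02 had the same ratio in both lines within counting error. A difference of more than 2-fold was seen for 1 of the 10, and for 2.9% of 11281 loci in this direction and 1.7% in the other. Atf3 was at 2.74 FPKM in 427 and at 4.63 in SP2bKD cells with DMSO, so the starting levels differed as well.

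**Figure D5:**
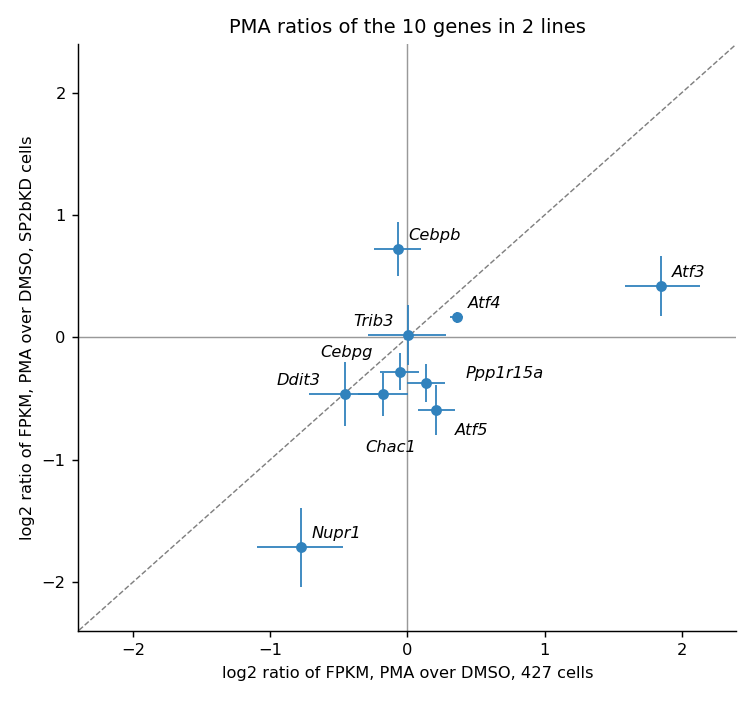
Log2 ratio of FPKM, PMA over DMSO, in SP2bKD cells (vertical axis) against 427 cells (horizontal axis) for the 10 regulators, with 95% counting intervals and a dashed line where both lines are equal. Atf3 lies right of the line at 1.85 and 0.42, Cebpb above it at -0.07 and 0.72, and Ddit3 and Trib3 on it.

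Without PMA, SP2bKD and 427 cells differed by more than 2-fold for 1 of the 10. Cebpb was lower in SP2bKD cells, at a log2 ratio of -1.05 (-1.27 to -0.84), where 3.13% of 11078 loci were lower and 3.92% higher by that much. Atf5 followed at -0.72 (-0.89 to -0.56), and Atf3 at 0.75 (0.45 to 1.07) and Nupr1 at 0.57 (0.31 to 0.82) lay on the other side. For Ddit3, Cebpg and Ppp1r15a the interval included 0. With PMA, Atf5 was the 1 gene past 2-fold, at -1.53 (-1.71 to -1.35), against 3.27% of 10840 loci lower and 2.56% higher. Cebpb then had -0.26 (-0.44 to -0.09). These are 2 lines with 1 library each, and Sppl2b was not lower in the derivative, so a difference of the lines cannot be told apart from one of the knockdown.

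The genes whose pattern over the 6 libraries lay nearest to each regulator were found by the root mean square difference of centred log2 FPKM with 0.1 added, among 3014 genes. Trib3 and Chac1 were each nearest to the other, at 0.27, followed for both by Lrrc32. Ddit3 had Bbc3 (0.12), Sesn2 (0.15) and Herpud1 (0.19) beside it, and Nupr1 had Sned1 (0.30), Fgf21 (0.33) and Slc1a4 (0.35). Atf3 had no close neighbour, with Egr1 (0.72), Egr2 (0.75) and Emp1 (0.76) as its nearest. Ppp1r15a lay beside Mmp28 (0.24), Tcn2 (0.25) and Btg2 (0.26), and Cebpg beside Plekha5, Pycr1 and Nfe2l1 at 0.10 to 0.11.

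Over all pairs of the 10, distances ran from 0.27 for Trib3 and Chac1 to 1.76 for Atf3 and Atf4. Cebpb was nearest to Tmem198, Gm5900 and Zbtb7c, and Atf5 to Lrfn1, Cyp4f13 and Me3. These distances describe 6 libraries, with GFP+EICD the highest for all 10 genes.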

How the data were processed

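RNA of 6 cell line samples, 1 per condition, was made into TruSeq libraries that do not keep strand and sequenced with paired reads of 100 bases. The authors aligned the reads with TopHat2 2.1.1, assembled transcripts, and deposited FPKM values from Cufflinks 2.1.1 and Cuffdiff 2.1.1 on GRCm38. STAR 2.4.0b is also named in the submitters' processing notes, with no role given. Of the loci, 3217 were newly assembled, and 6 of the 10 genes had new isoforms in their model, which can move an FPKM value.

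From the deposited FPKM, log2 ratios were computed with Python 3.11.15, NumPy 2.4.6 and pandas 2.3.3 for loci that reached 1 FPKM in either library of a pair. Before the ratio, 0.01 was added to both libraries, and for EICD to the GFP+EICD library only, at 0.01 FPKM or more in the GFP library. Depth was estimated from the FPKM steps of genes with 1 transcript of over 2500 bases. With SciPy 1.17.1, exact Clopper-Pearson intervals (95%) were formed from fragments estimated by the length of the principal transcript. Those of a difference of PMA ratios came from a normal approximation with the estimated fragments of all its libraries. No test was run. The genes, lists and nearest-gene rule (3 per gene) were chosen with earlier results of these data known. The nearest genes of Atf4 are not reported here. Plots were drawn with matplotlib 3.10.9. Alternatives were other amounts added, other minima, 2 scalings, and annotated loci only.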

Additional observations from a re-analysis of the deposited data

Results flagged for a closer look

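Atf5 was singled out because the PMA ratios of its libraries pointed in opposite directions in the 2 lines, at 0.21 (95% counting interval 0.08 to 0.35) in 427 cells and -0.59 (-0.80 to -0.39) in SP2bKD cells. The difference was 0.81 on the log2 scale, and with 1 library per condition it was not tested against replicates. Groups of 1 library allowed no search for outlying samples.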

How the results depend on the processing

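No paired analysis was possible because each condition has 1 library, and for the same reason no replicate could be left out. Among the single-gene ratios and PMA differences of the 10 regulators, 517 values were computed under alternatives, of which 510 moved by less than 0.5 of the width of the counting interval and 7 by more. The other minima and the use of annotated loci only change which loci are compared and cannot move a single-gene ratio. Part of the 510 values was therefore fixed in advance, and only the added amounts and the scalings could move a value. None past 2-fold changed direction. Signs changed under a scaling for Trib3, Cebpb and Cebpg with PMA in 427 cells and for the difference of PMA effects on Ddit3, whose intervals included 0. The median of the 10 with PMA in 427 cells was 0.07 under median ratio scaling (-0.03 as reported), and that of SP2bKD against 427 DMSO cells was -0.04 at a minimum FPKM of 10 (0.11). With EICD the count of regulators more than 2-fold higher stayed at 8 under every alternative set at the start, their median at 1.69 to 1.77, and it was 6 against the highest of the other 5 libraries, an alternative added after the data were seen. With 1 added to both libraries, the count more than 2-fold lower in SP2bKD than in 427 DMSO cells was 0 in place of 1 (Cebpb). With a minimum FPKM of 10, the count higher with PMA in 427 cells was 0 in place of 1, because Atf3 was below 10 FPKM in both libraries. The share of all loci more than 2-fold higher with EICD was 1.65% at that minimum and 10.6% with no minimum (3.93% as reported), and 0.326% and 6.26% for those lower (0.81%). The shares for PMA in 427 cells ran from 3.15% to 10.2% higher and from 1.6% to 14.0% lower, and those in SP2bKD cells from 2.89% to 10.2% and from 2.84% to 15.2%, each highest with no minimum. Scaling by the median ratio moved the median of all loci with PMA from -0.15 to -0.03 in SP2bKD cells and from -0.12 to -0.02 in 427 cells. Of the 3 nearest genes of each regulator, 0 to 2 were shared when 1 was added in place of 0.1, and 1 to 3 under the largest absolute difference. Among the 10 regulators, Nupr1 in SP2bKD PMA cells had the fewest fragments (107), and some listed genes lay under 1 FPKM in a library (Fosb at 0.445 and Gdf15 at 0.344 in SP2bKD DMSO cells), where ratios are less precise.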
